A study of Homo sapiens with 7 samples.

Results

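The MYC and PVT1 locus was described from 7 lists of chromatin loops. A loop was assigned to the locus when the midpoint of at least 1 of its anchors lay on chromosome 8 between 127800000 and 130800000 in hg19 (GRCh37), a window of 3 Mb around the MYC start near 128748000. This choice used position alone and no loop count. It gave 119 of the 135475 loops in the 7 lists.

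MYC encodes a transcription factor that promotes cell growth and division and is often deregulated in cancer. PVT1, the next gene downstream on the same strand, gives a long noncoding RNA. The genes lie in a wide stretch with few protein-coding genes, and enhancers of MYC on both flanks, some of them inside PVT1 and some very far downstream, are known to act in different tissues. The PVT1 promoter has itself been described as a competitor of the MYC promoter for enhancers within PVT1, and a CTCF site is known just upstream of MYC.

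Loops were measured by HiChIP, in which DNA ends that are close together in fixed nuclei are ligated, an antibody pulls down the ligated chromatin, and both ends are sequenced. HEC-1-B, an established line of human uterine adenocarcinoma, was the parent of all 7 libraries. Wild-type cells were studied with antibodies against ZNF143, CTCF and RAD21, and ZNF143KO cells, which lack ZNF143, with antibodies against CTCF and RAD21. CTCF-AID cells, whose CTCF carries a degron tag, were studied with the ZNF143 antibody at 0 h and at 24 h of auxin (indole-3-acetic acid, given at 500 µM). The tag is present in both CTCF-AID libraries, so the 0 h library is a control for the 24 h library and not a wild-type one. ZNF143 and CTCF are DNA-binding zinc-finger proteins, and RAD21 is a subunit of cohesin, the ring complex that extrudes loops until it meets bound CTCF. Whether the ZNF143KO and CTCF-AID lines are single clones is not given in the sources used here, and the loop lists hold no measure of ZNF143 or CTCF protein. Each group held 1 library. Differences between groups therefore have no replicate check, no test was run and no p-value is given.

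A count is the whole number deposited for each loop, taken here as its supporting read pairs. The lists start at a count of 2, and why a loop is absent from a list (fewer than 2 counts, no called anchor or another filter of the loop caller) cannot be told from the files. The summed count of a whole list ran from 33460 to 143119. At the locus most loops were near the lower limit: the highest count of any loop was 8, and between 5 and 29 loops per list had a count of 2, apart from wild-type ZNF143, where this held for both of its 2 loops. In the CTCF-AID lists 89.5% and 86.8% of all loops had an even count, against 68.1% to 74.6% in the other lists, so their counts may be on another scale. Dividing all counts of a list by 2 leaves its counts per 10000 counts unchanged, but their intervals would be too narrow. Intervals from counts divided by 2 are given where this matters. On such a scale the lower limit of 2 would also stand for fewer read pairs in the CTCF-AID lists. Counts per 10000 with a limit matched between lists were not computed. Intervals are exact 95% intervals that cover counting error alone, and loops sharing an anchor are not independent. PCR copies of 1 molecule cannot be told from separate molecules.

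The locus held 2 loops in the wild-type ZNF143 list, 40 in the CTCF-AID list at 0 h and 12 at 24 h. It held 18 CTCF loops in wild-type and 10 in ZNF143KO cells, and 23 RAD21 loops in wild-type and 14 in ZNF143KO cells. As a share of its own list, the locus was lowest for wild-type ZNF143, at 0.0167% of loops (0.00202 to 0.0603), and highest for wild-type RAD21, at 0.137% (0.0869 to 0.206). The CTCF-AID lists gave 0.0990% (0.0707 to 0.135) at 0 h and 0.0583% (0.0301 to 0.102) at 24 h. For CTCF the shares were 0.0932% (0.0552 to 0.147) and 0.0641% (0.0307 to 0.118) in wild-type and ZNF143KO cells, and RAD21 in ZNF143KO cells gave 0.130% (0.0709 to 0.217). The wild-type ZNF143 interval lay below those of the CTCF-AID list at 0 h and of both RAD21 lists, and it overlapped those of the CTCF-AID list at 24 h and of both CTCF lists.

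Where the loops ended was described by merging anchors that lay within 5 kb of each other into sites, over all 7 lists. This gave 49 sites, of which 38 lay in the window. The site at the MYC start covered chromosome 8, 128745769 to 128751045, and the site at the PVT1 start covered 128806235 to 128808081. Other sites are named by the distance of their centre from the MYC start. A site can join neighbouring anchors that differ between lists. No sequence or exon map of this build was used, so sites inside PVT1 are not called exonic or intronic. A site was taken to lie in PVT1 when its distance from the PVT1 start was shorter than the RefSeq gene, which is 306733 bp long (gene ID 5820, GRCh38.p14).

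**Figure D1:**
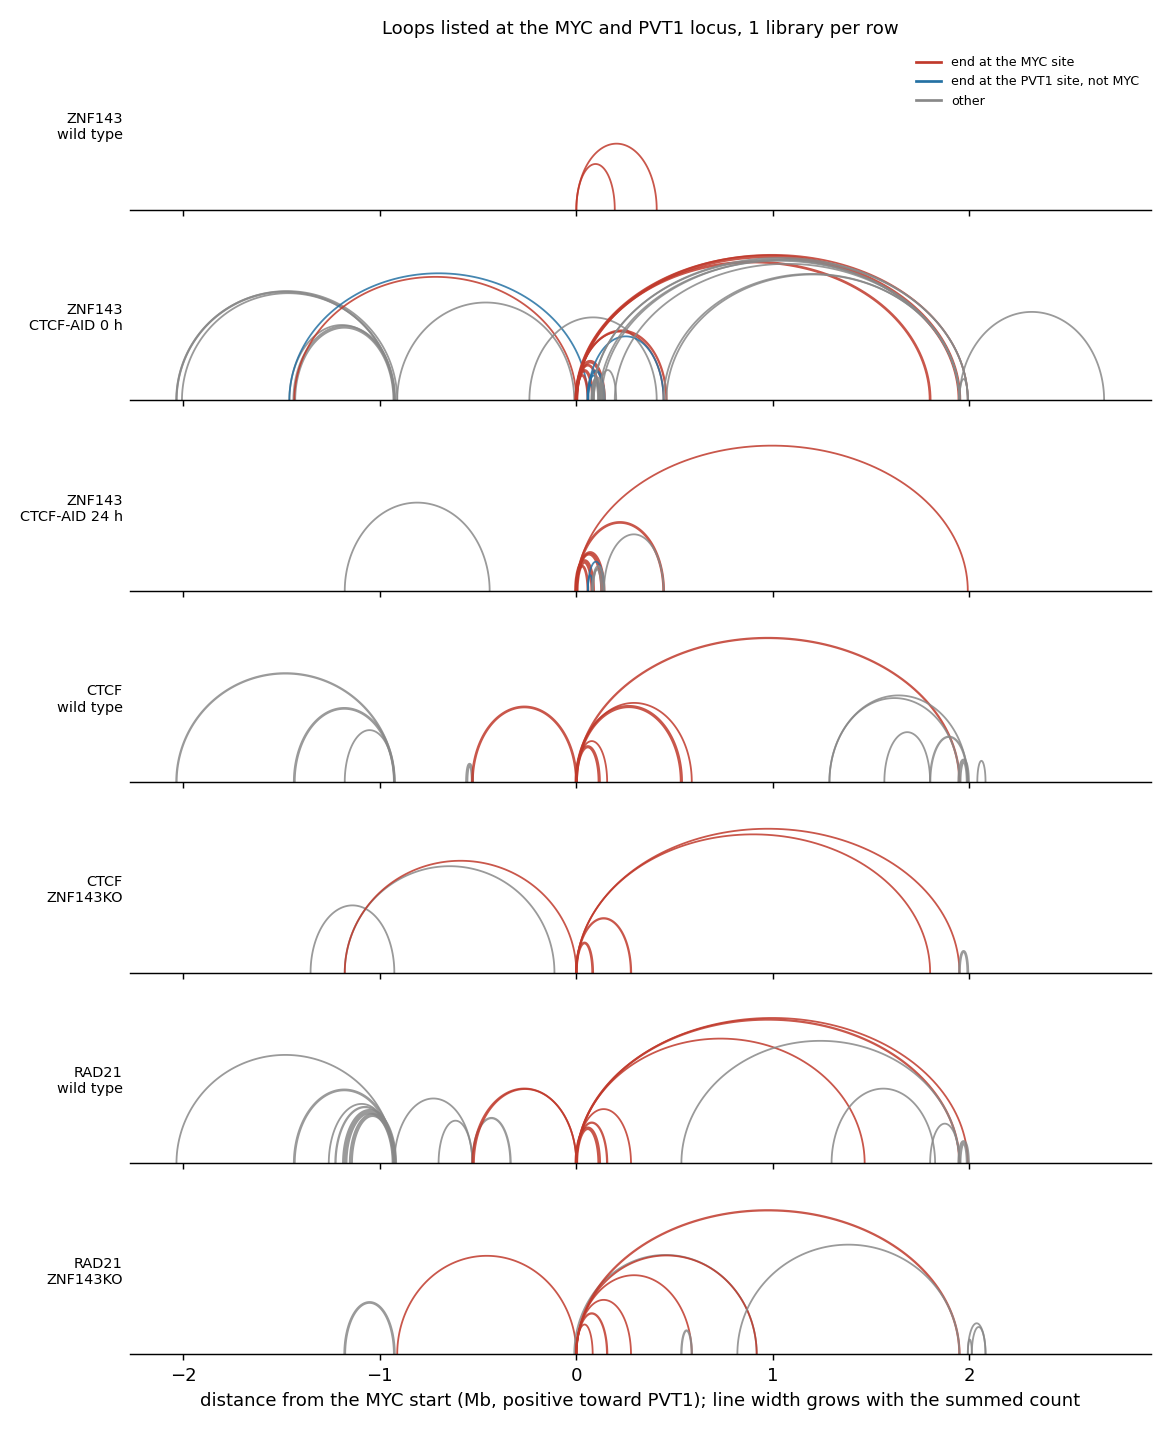
Loops at the locus in each of the 7 lists, drawn as arcs over the distance from the MYC start in Mb (positive toward PVT1), 1 arc per pair of sites and line width growing with the summed count (arc height grows with span and has no scale of its own). Red arcs end at the MYC site, blue arcs at the PVT1 site but not at MYC. Most red arcs point toward PVT1, and the only 2 arcs in wild-type ZNF143 are red.

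The MYC site was the most connected site of the locus and had loops in all 7 lists. It carried 51 of the 119 loops, with a summed count of 140. Of these, 45 loops (count 126) went downstream, toward PVT1 and beyond, and 6 loops (count 14) went upstream. Downstream partners lay within PVT1 for 21 loops (count 65), at the PVT1 start for 2 loops (count 8) and beyond PVT1 for 22 loops (count 53). Downstream loops outnumbered upstream ones in each list. With the ZNF143 antibody there were 2 downstream and 0 upstream in wild-type cells, 14 and 1 in CTCF-AID cells at 0 h, and 6 and 0 at 24 h. CTCF gave 6 and 1 in wild-type and 5 and 1 in ZNF143KO cells, and RAD21 gave 6 and 2, and 6 and 1.

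How many sites were as one-sided was counted in each list, with the MYC site among them, a comparison chosen after the values were seen. In the CTCF-AID list at 0 h, 793 of 19274 sites over the genome had at least the 15 loops of the MYC site, and 5 of these (0.631%) were at least as one-sided. Those 15 loops joined 10 partner sites, and 3 loops remain with counts divided by 2 and loops under 2 dropped. At 24 h, 2000 sites had at least 6 loops and 54 of these (2.70%) sent all of them to one side. In the other lists many sites were as one-sided: the same shares were 34.8% for wild-type ZNF143, 23.0% and 27.0% for CTCF in wild-type and ZNF143KO cells, and 54.2% and 34.1% for RAD21. How the anchors available for loops are spread over both sides of MYC was not measured.

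The MYC site contains 2 anchors that the lists mostly keep apart. One, 128745769 to 128747051, ends 0.949 kb before the MYC start, and the other begins at 128747863 and covers the start. In wild-type CTCF the upstream anchor had 2 loops (count 5) and the start anchor 5 loops (count 16), and in ZNF143KO cells they had 2 loops (count 5) and 4 loops (count 8). RAD21 gave 1 loop (count 2) and 7 loops (count 20) in wild-type cells, and 2 loops (count 4) and 5 loops (count 12) in ZNF143KO cells. Most CTCF and RAD21 loops thus ended at the anchor over the start. Both wild-type ZNF143 loops ended at the upstream anchor. In CTCF-AID cells at 0 h the upstream anchor had 6 loops (count 13) and the start anchor 9 (count 25). At 24 h the list joined both into 1 anchor, 128745769 to 128749036, with 6 loops (count 26). A pair of 0 h loops to 1 partner can therefore stand against a single loop at 24 h, and counts are therefore summed per partner site below. The sums still depend in part on the split, since each loop needs a count of 2 to be listed, and a partner with a count of 1 to each of the 0 h anchors would be missing at 0 h but listed for a joined anchor.

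**Figure D2:**
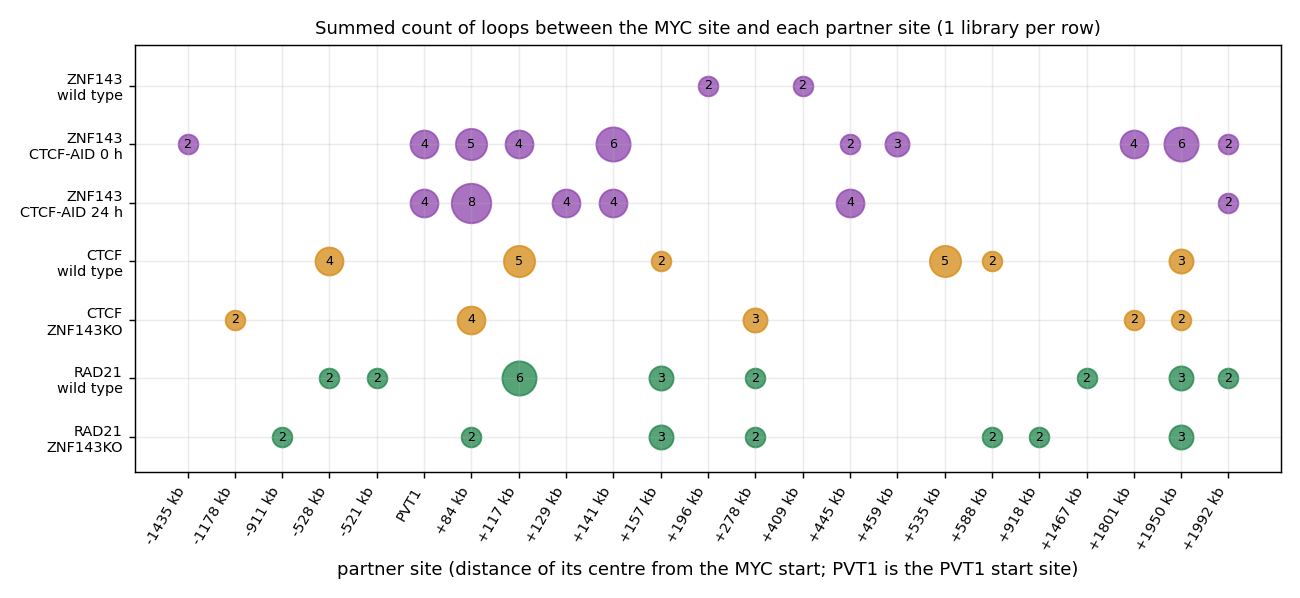
Summed count of the loops that join the MYC site to each of its 23 partner sites (x axis, ordered by position) in each list (y axis, 1 library per row); circle area and the printed number give the count. The site at 1950 kb downstream has circles in 5 lists, and no partner has one in all 7.

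The MYC site had 23 partner sites, 5 upstream and 18 downstream. Of these, 11 were listed in 1 library, 6 in 2, 4 in 3, and 1 each in 4 and 5 libraries. The partner seen most widely was the site 1950 kb downstream (130693761 to 130701359). Its summed count with MYC was 6 in CTCF-AID cells at 0 h, 3 in wild-type CTCF, 2 in ZNF143KO CTCF, 3 in wild-type RAD21 and 3 in ZNF143KO RAD21, and the loop was listed neither for wild-type ZNF143 nor at 24 h of auxin. The longest loops in the 7 lists span about 2 Mb, so this loop lies near that limit.

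The site 84 kb downstream (128829215 to 128833832), within PVT1, was joined to MYC in 4 lists. The counts were 5 at 0 h and 8 at 24 h in CTCF-AID cells, 4 for CTCF in ZNF143KO cells and 2 for RAD21 in ZNF143KO cells. In the wild-type lists of all 3 antibodies this loop was not listed. Inside this site the anchor was 128831825 to 128833832 in both CTCF-AID lists and 128832186 to 128833832 for ZNF143KO RAD21, whereas ZNF143KO CTCF used a neighbouring anchor, 128829215 to 128831493. The site 117 kb downstream (128863204 to 128866335) also lies within PVT1. Its counts with MYC were 4 at 0 h in CTCF-AID cells, 5 for CTCF and 6 for RAD21 in wild-type cells, and it was not listed for wild-type ZNF143, at 24 h or in either ZNF143KO library. No count of either loop exceeded 8, where the lists begin at 2.

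Among the other partners inside PVT1, the site at 141 kb was joined to MYC in both CTCF-AID lists (counts 6 and 4) and in none of the others. The site at 157 kb was joined to MYC in wild-type CTCF (count 2) and in both RAD21 lists (count 3 in each). The site at 278 kb had counts of 3 for CTCF in ZNF143KO cells and 2 in each RAD21 list. The MYC loop to 141 kb was thus listed in CTCF-AID cells and those to 157 and 278 kb in wild-type or ZNF143KO cells, where the wild-type ZNF143 list held none of the 3.

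Upstream partners of MYC were few and differed between lists. The site 528 kb upstream (128218603 to 128220513) was joined to MYC in wild-type CTCF (count 4) and wild-type RAD21 (count 2), and a neighbouring site 521 kb upstream in wild-type RAD21 (count 2). In ZNF143KO cells neither was listed, and the upstream partners were 1178 kb away for CTCF (count 2) and 911 kb away for RAD21 (count 2). The CTCF-AID list at 0 h had a partner 1435 kb upstream (count 2), and at 24 h no upstream partner was listed.

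Of the 51 MYC loops, 15 (count 35) spanned at least 1 Mb. Over the locus as a whole, loops of at least 1 Mb made up 17 of 40 in CTCF-AID cells at 0 h (42.5%, 27.0 to 59.1), 4 of 10 for ZNF143KO CTCF (40.0%, 12.2 to 73.8) and 5 of 23 for wild-type RAD21 (21.7%, 7.46 to 43.7). The shares of such loops in the whole lists were 10.4%, 1.31% and 2.17%, each below the interval of the locus. The same held for ZNF143KO RAD21, with 2 of 14 (14.3%, 1.78 to 42.8) against 1.34%. For wild-type CTCF, 2 of 18 (11.1%, 1.38 to 34.7) compared with 1.97%, which lay inside the interval. At 24 h of auxin it was 1 of 12 (8.33%, 0.211 to 38.5) against 14.8%, and for wild-type ZNF143 neither of the 2 loops. At 0 h, for ZNF143KO CTCF and for wild-type RAD21, all but a few of the long loops had a count of 2. The exceptions joined the MYC start anchor to the site at 1950 kb (4 at 0 h, 3 for RAD21) and, at 0 h, the sites 2034 and 926 kb upstream (3). Shares of long loops were not computed at a higher minimum count or with counts divided by 2.

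PVT1 start loops were listed with the ZNF143 antibody in CTCF-AID cells and in no other library. There were 6 at 0 h (summed count 16, 9.15 to 26.0) and 3 at 24 h (8, 3.45 to 15.8). With counts divided by 2 and loops under 2 dropped there were 2 (count 4) and 1 (count 2), and at a minimum count of 3 there were 2 and 1. Per 10000 counts of the list these were 1.12 (0.639 to 1.82) and 0.777 (0.335 to 1.53), with overlapping intervals. One joined the PVT1 start to the MYC site, over 58.6 kb at 0 h and 59.8 kb at 24 h, with a count of 4 at both times.

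The other PVT1 loops mostly stayed inside the gene. At both times the PVT1 start was joined to the site at 84 kb (count 2 and 2) and to the site at 141 kb (count 4 and 2). At 0 h it also reached the sites at 117 kb (count 2), at 445 kb (count 2) and 1460 kb upstream of MYC (count 2). The last of these was the single PVT1 start loop that passed over MYC.

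Loops that passed over the MYC start without ending at the MYC site were rare. Over the 7 lists, 3 loops (count 6) did so, against the 51 (count 140) that ended there. Besides the PVT1 loop just named, there was a 0 h ZNF143 loop from 239 kb upstream to 409 kb downstream (count 2) and a ZNF143KO RAD21 loop from 10 kb upstream to 918 kb downstream (count 2). In the 5 other lists no passing loop was listed.

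**Figure D3:**
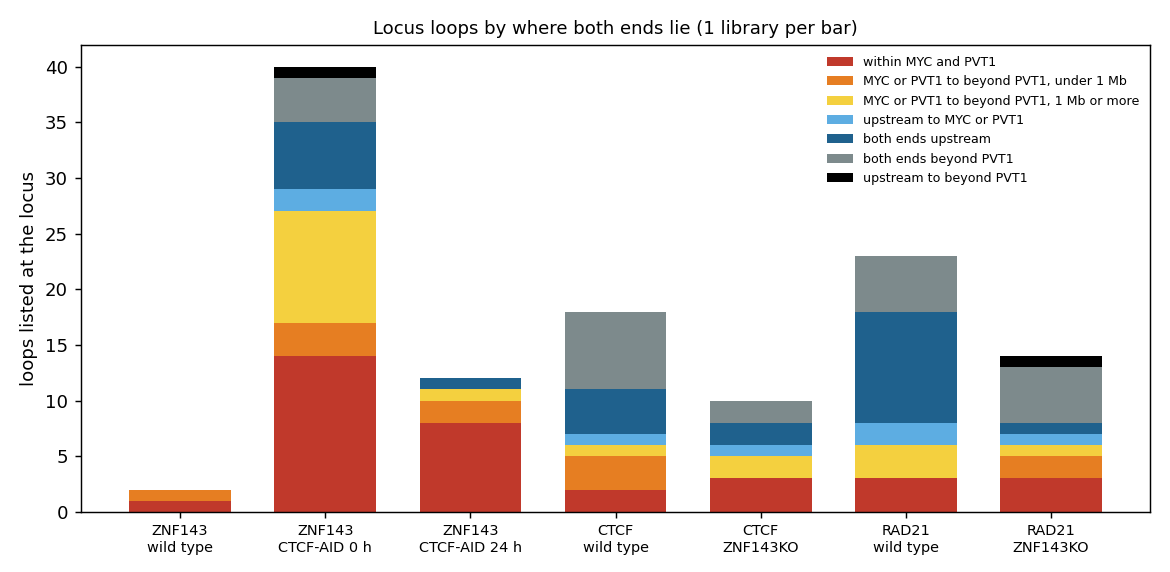
Number of locus loops in each list (bars, 1 library each), split by where both ends lie. Within-gene loops make up 14 of 40 at 0 h and 8 of 12 at 24 h in the CTCF-AID lists, and loops with both ends upstream make up 10 of 23 in wild-type RAD21.

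Auxin treatment of CTCF-AID cells, which is meant to degrade CTCF, was compared first. The locus had 40 loops at 0 h and 12 at 24 h, a ratio of 0.300 (0.143 to 0.583), against 0.510 in the whole lists, which lay inside that interval. With counts divided by 2 and loops under 2 dropped, the ratio was 0.750, and at a minimum count of 3 it was 0.636. Loops with a count of 2 made up 69.0% of the whole 0 h list and 59.0% of the 24 h list. The whole-list ratio therefore changes under these settings too, and as it was not recomputed, 0.510 is no reference for them. At the locus, the summed counts were 109 and 41. Loops with both ends within the MYC and PVT1 genes made up most of what was listed at 24 h: there were 14 (count 49) at 0 h and 8 (count 31) at 24 h, or 3.42 (2.53 to 4.53) and 3.01 (2.05 to 4.27) per 10000 counts. Loops from these genes to sites 1 Mb or more downstream numbered 10 (count 22) and 1 (count 2), or 1.54 (0.963 to 2.33) and 0.194 (0.0235 to 0.702) per 10000 counts. The within-gene intervals overlapped and the long-range intervals did not. With counts divided by 2 and no loop dropped, the long-range intervals were 0.767 to 2.75 and 0.00492 to 1.08 and overlapped as well. The values per 10000 counts then stay the same.

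The share of the list that ended at the MYC site differed by less than its counting error. Its summed count was 38 (26.9 to 52.2) at 0 h and 26 (17.0 to 38.1) at 24 h, which is 2.66 (1.88 to 3.64) and 2.53 (1.65 to 3.70) per 10000 counts. The order of the summed counts turned under other settings: it was 18 at 0 h and 24 at 24 h, with 5 loops each, at a minimum count of 3, and 6 (3 loops) and 12 (5 loops) with counts divided by 2 and loops under 2 dropped. The whole locus had 7.62 (6.25 to 9.19) and 3.98 (2.86 to 5.40) per 10000 counts, intervals that did not overlap as deposited but did with counts divided by 2 (5.73 to 9.93 and 2.45 to 6.12). Of its 10 partner sites at 0 h, MYC had 5 at 24 h as well: the PVT1 start and the sites at 84, 141, 445 and 1992 kb. These were 50.0% (18.7 to 81.3) of the 0 h and 83.3% (35.9 to 99.6) of the 24 h partners, and the shares over all joined pairs of sites, 22.6% and 43.7%, lie inside these intervals. The site at 445 kb was reached through neighbouring anchors, 129187830 to 129190059 at 0 h and 129194819 to 129197191 at 24 h. The sites at 117, 459, 1801 and 1950 kb downstream and 1435 kb upstream were not listed with MYC at 24 h. The site at 129 kb was listed then alone (count 4).

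The site 1950 kb downstream, the second most connected of the locus, had 9 loops (count 20) at 0 h and none at 24 h. The site 926 kb upstream had 4 loops (count 13) and none, and the site at 117 kb 7 loops (count 23) and none. Per 10000 counts, these sites had 1.40 (0.854 to 2.16), 0.908 (0.484 to 1.55) and 1.61 (1.02 to 2.41) at 0 h, and the interval for 0 at 24 h ran to 0.358. By contrast, the site at 84 kb had 7 loops (count 25) and 4 loops (count 17), or 1.75 (1.13 to 2.58) and 1.65 (0.962 to 2.64) per 10000 counts. The site at 1992 kb had 4 loops (count 8) and 1 loop (count 2), or 0.559 (0.241 to 1.10) and 0.194 (0.0235 to 0.702), with overlapping intervals. All these intervals are from counts as deposited.

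Loop by loop, 30 of the 40 loops at 0 h were lost, meaning that no loop of the 24 h list overlapped both anchors extended by 5 kb. That is 75%, beside 75.3% of all 0 h loops, a share close to that of the list. The lost loops with the highest counts joined the sites at 84 and 117 kb (count 7), the sites at 117 and 141 kb (count 6), and the sites 1435 and 926 kb upstream (count 6). Of the 12 loops at 24 h, 4 were gained (33.3%, 9.92 to 65.1), beside 54.6% in the whole list. The strongest gained loops joined the sites at 84 and 141 kb (count 4) and MYC to the site at 129 kb (count 4), followed by the sites at 141 and 445 kb (count 2). Of the 10 found loops, 4 were at least 2-fold higher in share of the list total, beside 41.5% of all found loops, and 0 were at least 2-fold lower, beside 3.94%. All 4 ended at the MYC site, where 2 anchors at 0 h stand against 1 at 24 h.

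Deletion of ZNF143 was compared next in the CTCF lists. The locus had 18 loops (count 53) in wild-type and 10 (count 21) in ZNF143KO cells, a ratio of 0.556 (0.229 to 1.27), an interval that includes both 1 and the 0.808 of the whole lists. At a minimum count of 3 the ratio was 0.111, outside that interval, and at 5 it was 0. Loops with a count of 2 made up 62.6% of the whole ZNF143KO list and 50.2% of the wild-type list. At a minimum count of 3 the whole-list ratio therefore falls below 0.808 too, and it was not recomputed. The MYC site had 7 loops with a summed count of 21 (13.0 to 32.1) in wild-type cells and 6 loops with 13 (6.92 to 22.2) in ZNF143KO cells. In counts per 10000 of the list, this was 2.60 (1.61 to 3.98) and 2.81 (1.50 to 4.81), with overlapping intervals. At a minimum count of 3, MYC had 4 loops in wild-type and 1 in ZNF143KO cells.

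Of the 6 partner sites of MYC for CTCF in wild-type and the 5 in ZNF143KO cells, 1 was shared, the site at 1950 kb. That is 16.7% (0.421 to 64.1) of the wild-type and 20.0% (0.505 to 71.6) of the ZNF143KO partners. Over the genome, 36.3% of all joined pairs of sites in the wild-type list and 44.7% of those in the ZNF143KO list were in the other list, both inside these intervals. The shared partner was reached through neighbouring anchors, 130693861 to 130695204 in wild-type and 130698859 to 130701359 in ZNF143KO cells. The sites 528 kb upstream and 117, 157, 535 and 588 kb downstream were listed in wild-type cells alone, and the sites 1178 kb upstream and 84, 278 and 1801 kb downstream in ZNF143KO cells alone. By loops, 15 of 18 (83.3%) were lost, beside 60.9% of all wild-type CTCF loops. The share found again, 16.7%, had an interval of 3.58 to 41.4 that includes the 39.1% of the whole list, and it was 5.56% when anchors had to overlap without extension. The strongest lost loops joined the sites 557 and 528 kb upstream (count 5), MYC and the site at 117 kb (count 5), and the sites 1435 and 926 kb upstream (count 4). Of the 10 loops in ZNF143KO cells, 7 (70.0%) were gained, beside 52.9% in the list. The strongest joined MYC to the site at 278 kb (count 3) and, from both MYC anchors, to the site at 84 kb (count 2 each). Of the 3 found loops, 0 were at least 2-fold higher in share of the list total, beside 23.2% of all found loops, and 0 at least 2-fold lower, beside 8.40%.

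In the RAD21 lists the locus had 23 loops (count 70) in wild-type and 14 (count 33) in ZNF143KO cells. The ratio was 0.609 (0.290 to 1.23), with 0.644 in the whole lists, and at a minimum count of 5 it was 0. The whole-list ratio at that minimum was not computed. The MYC site had 8 loops with a summed count of 22 (13.8 to 33.3) and 7 loops with 16 (9.15 to 26.0), or 2.96 (1.85 to 4.48) and 4.78 (2.73 to 7.77) per 10000 counts, again with overlapping intervals.

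Of the 8 and 7 partner sites of MYC for RAD21, 3 were shared, at 157, 278 and 1950 kb, each with the same count in both lists (3, 2 and 3). These were 37.5% (8.52 to 75.5) of the wild-type and 42.9% (9.90 to 81.6) of the ZNF143KO partners, with 31.8% and 49.0% over all joined pairs of sites, inside both intervals. The MYC loop to the site at 117 kb (count 6) was among the strongest lost loops, after the loop between the sites 1147 and 926 kb upstream (count 7) and before the loop between the sites at 1950 and 1992 kb (count 4). In all, 18 of 23 loops (78.3%) were lost, beside 65.9% of the list, and 10 of 14 (71.4%) were gained, beside 49.1%. The interval of the gained share, 41.9 to 91.6, includes the share of the list. The strongest gained loops joined the sites at 535 and 588 kb (count 3), at 1992 and 2013 kb (count 2), and at 2013 and 2082 kb (count 2). Of the 5 found loops, 4 were at least 2-fold higher in share of the list total, beside 42.5% of all found loops, and 0 were at least 2-fold lower, beside 6.18%. Among those 4, the 3 MYC loops had equal counts in both lists, and a total of 33460 counts stood against 74410. The remaining loop joined the sites 1178 and 926 kb upstream (count 2 and 4), where 2 wild-type anchors stand against 1 joined anchor in ZNF143KO cells. Summed per pair of sites, that count was 10 in wild-type and 4 in ZNF143KO cells.

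Among the 6 most connected sites, the widest gap in RAD21 counts lay upstream. The site 926 kb upstream (127821531 to 127823121) had 8 loops with a summed count of 30 in wild-type and 1 loop with a count of 4 in ZNF143KO cells, or 4.03 (2.72 to 5.76) and 1.20 (0.326 to 3.06) per 10000 counts, intervals that overlapped. For CTCF the same site had 3 loops (count 9) and 1 loop (count 2). Most of its wild-type RAD21 counts came from sites 1178 kb (count 10), 1147 kb (count 7), 1435 kb (count 4) and 1225 kb (count 3) upstream of MYC, and none of its loops in any list ended at the MYC site.

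**Figure D4:**
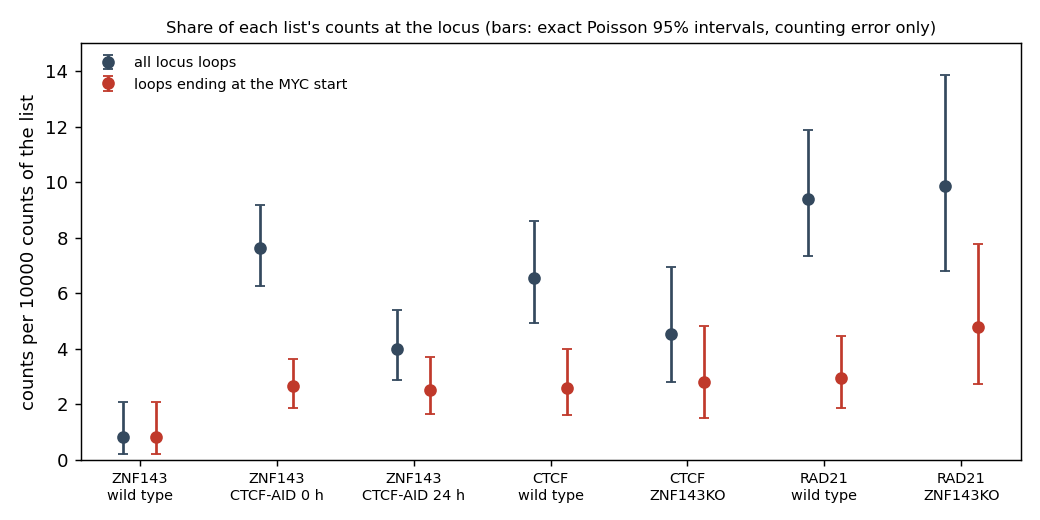
Counts per 10000 counts of each list for all locus loops (dark points) and for loops ending at the MYC start (red points), with exact Poisson 95% intervals, 1 library per position. The red points of 6 lists lie between 2.53 and 4.78 with overlapping intervals, and that of wild-type ZNF143 lies at 0.811 (0.221 to 2.08), an interval that overlaps those of the other lists except ZNF143KO RAD21 (2.73 to 7.77).

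ZNF143 loops differed most between the 2 untreated libraries made with that antibody. Wild-type cells had 2 locus loops with a summed count of 4, from the upstream MYC anchor to the sites at 196 kb (count 2) within PVT1 and at 409 kb (count 2) beyond it. CTCF-AID cells at 0 h had 40 loops with a summed count of 109, a ratio of loop numbers of 20.0 (5.19 to 171), against 3.37 in the whole lists. Neither wild-type loop was found at 0 h (0% found, 0 to 84.2), beside 40.4% of all wild-type ZNF143 loops lost there, and 2 loops are too few to set against the 59.6% of the list that was found. All 40 loops at 0 h were gained, beside 80.6% in the list, the strongest joining the site at 84 kb to the sites at 117 and 129 kb (count 7 each) and the sites at 117 and 141 kb (count 6). Cell line, library and the layout of the deposited list all differ between these libraries, and their parts cannot be told apart. With the CTCF-AID counts divided by 2 and loops under 2 dropped, the ratio was 4.00. In the whole 0 h list of 40405 loops, the 27883 with a count of 2 and the 1994 with a count of 3 fall away as well. The whole-list ratio under this setting was not computed, so 4.00 cannot be set against 3.37.

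The antibodies were compared within wild-type cells. Of the 18 CTCF loops at the locus, 9 were found among RAD21 loops (50.0%, 26.0 to 74.0), beside 46.4% of the whole list, and of the 23 RAD21 loops 10 were found among CTCF loops (43.5%, 23.2 to 65.5), beside 52.2%. Both intervals include the share of the list. MYC had 4 partner sites in common between them: 528 kb upstream and 117, 157 and 1950 kb downstream. These were 66.7% (22.3 to 95.7) of its CTCF and 50.0% (15.7 to 84.3) of its RAD21 partners, with 44.0% and 50.1% over all joined pairs of sites. The site at 157 kb was reached through neighbouring anchors, 128905731 to 128908272 for CTCF and 128901914 to 128903123 for RAD21. Neither of the 2 ZNF143 loops was found among CTCF loops, beside 19.0% of all wild-type ZNF143 loops, or among RAD21 loops, beside 16.3%, and 22.6% of the list was found in either. None of the 18 CTCF and 23 RAD21 loops was found among the ZNF143 loops, with intervals of 0 to 18.5% and 0 to 14.8% that include the 12.8% and 12.3% of the lists.

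In ZNF143KO cells, 4 of 10 CTCF loops were found for RAD21 (40.0%, 12.2 to 73.8, beside 30.0%) and 3 of 14 RAD21 loops for CTCF (21.4%, 4.66 to 50.8, beside 41.3%), and MYC shared its partners at 84, 278 and 1950 kb. These were 60% (14.7 to 94.7) of its CTCF and 42.9% (9.90 to 81.6) of its RAD21 partners, with 27.4% and 39.0% over all joined pairs of sites. At 84 and 1950 kb the CTCF and RAD21 loops used neighbouring anchors and not the same one. In CTCF-AID cells at 0 h, 8 of 40 ZNF143 loops were found among wild-type CTCF or RAD21 loops (20.0%, 9.05 to 35.6, beside 14.8%), and at 24 h it was 1 of 12 (8.33%, 0.211 to 38.5, beside 7.82%). Each of these intervals includes the share of the whole list.

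The sites most like MYC were sought by the number of partner sites they shared with it over all lists. The site at 1950 kb shared 8 of its 11 other partners with MYC, among them the sites at 84, 117, 196, 445, 459, 535, 1801 and 1992 kb. The site at 84 kb shared all 6 of its other partners, including the PVT1 start, and the site at 141 kb shared all 4. The PVT1 start shared 4 of its 5 other partners with MYC: the sites at 84, 117, 141 and 445 kb. Most of these shared partners rest on the CTCF-AID list at 0 h, which has the most loops.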

How the data were processed

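The authors deposited 1 loop list per library, with 2 anchors and a whole-number count per loop. HiC-Pro and hg19 are named in the submitters' processing notes. The loop caller, its filters and any pooling of runs are not given in the sources used here. Anchor starts were raised by 1 on the assumption that the lists count from 0. Lists of wild-type ZNF143 and of both ZNF143KO libraries have another column layout than the other 4, so layout and genotype change together in both ZNF143KO comparisons.

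Loops of 2 lists were matched when both anchors, extended by 5 kb, overlapped. For the share of partners kept, anchors of all lists were merged into sites over the genome in the same way as at the locus. A promoter loop had an anchor within 5 kb of the gene start. The MYC start was the rounded hg19 position, and the hg19 start of PVT1 was taken from general knowledge. Named loops were the 3 lost and 3 gained locus loops with the highest count per pair, ties going to the shorter span, and the most connected sites. Shares have Clopper-Pearson, counts Poisson and ratios binomial-split 95% intervals (Python 3.11.15, scipy 1.17.1). The matching and interval code was tested on simulated data. The members and lists were chosen with earlier results of these data known. No sequence is shown.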

Additional observations from a re-analysis of the deposited data

How the results depend on the processing

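Loop ratios, shares of loops found within each pair, wild-type ZNF143 loops found with the other antibodies, promoter and passing loops, and CTCF-AID counts per 10000 were recomputed under other settings. Of 245 values 185 stayed within 1.5 times the reported number, or within the reported interval, and 60 did not. Many of the 185 could not move, so the tally is no measure of stability. Dividing CTCF-AID counts leaves the other lists as they are, and merging anchors leaves summed counts as they are. Values of 0 stay 0 at a higher minimum count. Intervals from CTCF-AID counts divided by 2 were counted as unmoved by definition. Ratios of the whole lists, shares of loops over 1 Mb, one-sidedness, partner sharing and the other antibody overlaps were not recomputed. None of the 245 values reversed a ratio whose interval excluded 1. No paired analysis was possible because each group held 1 library, and no library could be left out. Settings were planned, except the merging of anchors into sites and the intervals from CTCF-AID counts divided by 2 (chosen after seeing the data), with which the 24 h and 0 h intervals of the whole locus and of long-range loops overlapped. Changes of the extension in matching, the requirement of both anchors in the window, a 10 kb extension at the gene start and merged sites moved no value past those limits. Limits are the single library per group, the low counts of most locus loops, the unclear count scale of the CTCF-AID lists and the differing list layouts.

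With a minimum count of 3, MYC loops numbered 0 for wild-type ZNF143, 5 for CTCF-AID at 0 h and 5 at 24 h, 4 for wild-type CTCF, 1 for ZNF143KO CTCF, 3 for wild-type RAD21 and 2 for ZNF143KO RAD21. The summed counts that moved were 0, 18, 3, 12 and 6 for wild-type ZNF143, 0 h, ZNF143KO CTCF, wild-type RAD21 and ZNF143KO RAD21. The 24 h count was 24, so that the order of the CTCF-AID counts turned. PVT1 loops were 2 at 0 h (count 8) and 1 at 24 h, and no loop passed over MYC (0 in each list). The locus loop ratio was 0.111 for CTCF after ZNF143 deletion and 0.636 for 24 h against 0 h, and 0% of the CTCF loops were found. With a minimum count of 5, MYC loops were 1 at 24 h (count 8), 1 for wild-type CTCF (count 5), 1 for wild-type RAD21 (count 6) and 0 elsewhere, PVT1 and passing loops were 0, both ZNF143KO ratios were 0, and 0% of loops were found in all 3 pairs with a removed protein. Fewer loops remain under both settings, and values that need a wild-type ZNF143 locus loop could not be computed.

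With CTCF-AID counts divided by 2, MYC loops were 3 (count 6) at 0 h and 5 (count 12) at 24 h, which turned their order, PVT1 loops were 2 (count 4) and 1 (count 2), and passing loops at 0 h were 0. The 24 h to 0 h ratio was 0.750 and the ratio of 0 h to wild type was 4.00. As a ratio of shares of each list, 24 h to 0 h was 0.589, just outside the interval. Equal numbers of best supported loops gave 42.1% found at 24 h. Without extension at the gene start, MYC loops were 0 for wild-type ZNF143 (count 0) and 9 at 0 h (count 25).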

Other observations

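A cluster of sites at the far downstream end of the locus looped within itself. The sites at 1950 and 1992 kb were joined with a summed count of 7 for wild-type CTCF, 4 for ZNF143KO CTCF, 7 for wild-type RAD21 and 2 for ZNF143 in CTCF-AID cells at 0 h. The loop was not listed for RAD21 in ZNF143KO cells or for ZNF143 in wild-type cells and at 24 h of auxin. Loops with both ends beyond PVT1 numbered 7 (count 18) for wild-type CTCF and 2 (count 4) for ZNF143KO CTCF, or 2.23 (1.32 to 3.52) and 0.865 (0.236 to 2.22) per 10000 counts. For RAD21 they numbered 5 in both genotypes (counts 13 and 11), or 1.75 (0.930 to 2.99) and 3.29 (1.64 to 5.88) per 10000 counts. The intervals overlapped in both pairs. In ZNF143KO cells the site at 1992 kb was joined for RAD21 to the sites at 2013 and 2082 kb (count 2 each), which had no such loop in the other lists.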
